A study of Mus musculus with 6 samples.

Results

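Expression of the Slc25 family, the mitochondrial carriers, was compared between RAW 264.7 cells treated with bisphenol AP (BPAP) and cells treated with the solvent DMSO. RAW 264.7 is a mouse macrophage line, and BPAP is an analogue of bisphenol A. The members are the rows of the deposited gene table whose symbol is Slc25a followed by a number only. There were 47 such genes of 34745, and 36 of them passed the expression filter, as did 11711 genes in all. Each group had 3 libraries, with 11084705 to 13806559 counts in DMSO and 12056332 to 12427563 in BPAP. The labels give the cell line and treatment for both groups but no dose, exposure time or separate cultures, so p-values cover only how far these libraries spread, possibly for technical reasons. In bulk RNA, fewer cells that express a gene and less of its RNA per cell cannot be told apart.

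Mitochondrial carriers are transport proteins of the inner mitochondrial membrane, with a few in the outer membrane or in peroxisomes. Each is built from repeated modules of transmembrane helices. Most move a substrate such as ADP and ATP, phosphate, a citric acid cycle acid, an amino acid, a nucleotide or a cofactor, often in exchange for another. All are encoded in the nucleus and made in the cytosol, and those of the inner membrane are inserted by a dedicated import route. In macrophages, carriers of citrate, malate and aspartate link the citric acid cycle to fatty acid synthesis, nitric oxide production and cytosolic redox balance.

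Most carriers showed little difference between the groups. Of the 36 tested members, 4 rose and 2 fell at an adjusted p of 0.05 (edgeR's quasi-likelihood test, Benjamini-Hochberg adjustment over all genes tested). The risers were Slc25a33, Slc25a20, Slc25a39 and Slc25a11, and Slc25a36 and Slc25a10 fell. Those 6 genes are 16.7% of the tested members, beside 31.7% of all tested genes. Rises made up 11.1% of the members and 16.2% of all tested genes, and falls 5.56% and 15.5%. The groups' values were fully separate in 12 members (33.3%), beside 49% of all tested genes. The median log2 fold change, BPAP minus DMSO, was 0.07 for the members and 0.02 for all tested genes. Its median absolute value was 0.17 and 0.28. Of the 30 members that did not pass, 22 had a log2 fold change smaller than 0.2 in absolute value. With DESeq2 size factors in place of TMM scaling, 4 members rose and 4 fell. With BPAP 1 left out, 6 rose and 4 fell, and with DMSO 2 left out, 4 rose and 1 fell.

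**Figure D1:**
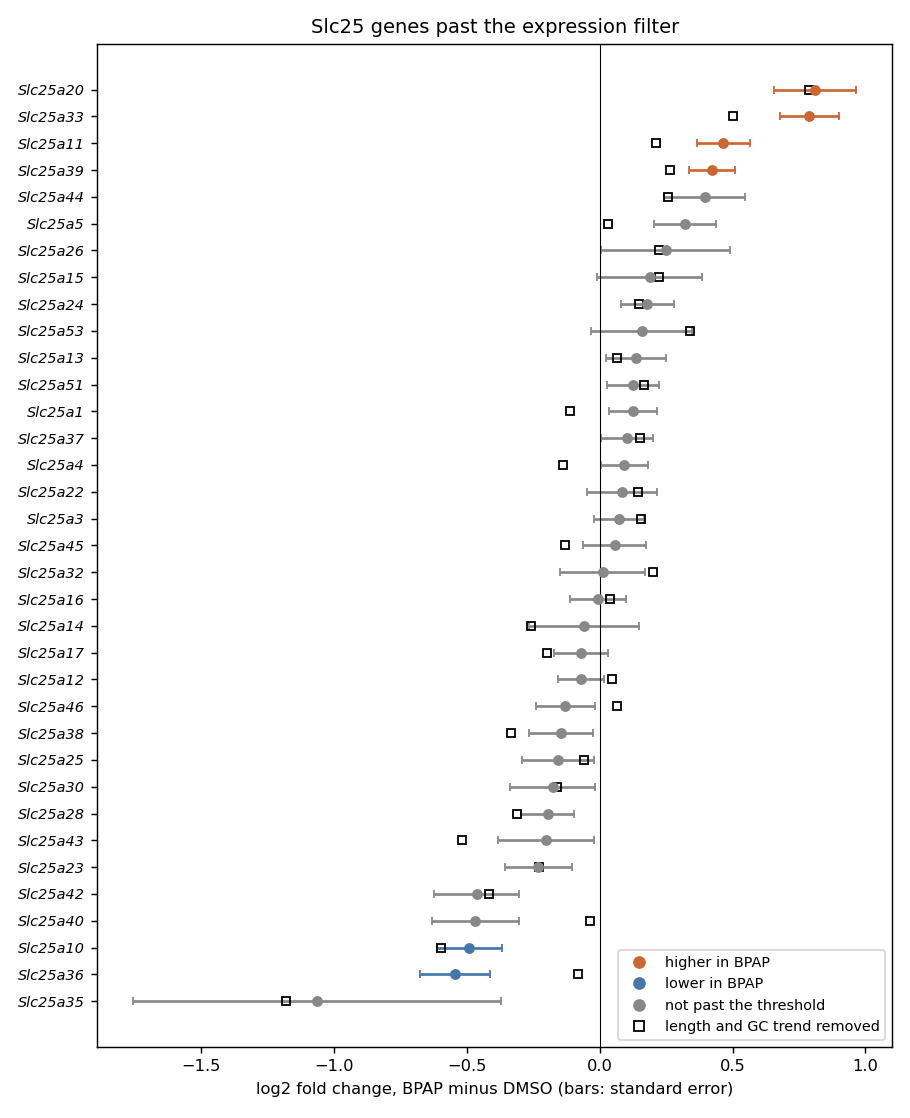
Log2 fold change, BPAP minus DMSO, of 35 of the 36 tested Slc25 genes with its standard error (filled circles), and the same in the length-adjusted fit, which takes out trends with exon length and GC content (open squares). The 4 rises reach 0.81 and the 2 falls -0.54, while Slc25a35, at -1.06, has a standard error of 0.69 and did not pass.

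Fold changes in these libraries fell with gene length. Across all tested genes, which are not independent replicates, the Spearman correlation between log2 fold change and merged exon length was -0.40 (n = 11665), and across the 36 members it was -0.29. The members' median exon length, 4299 bases, was close to the 4298 bases of all tested genes. In a length-adjusted fit, in which the trend of every library against exon length and GC content was taken out, 3 members rose (Slc25a33, Slc25a20 and Slc25a39) and 2 fell (Slc25a10 and Slc25a28). That is 13.9% of the members, beside 22.6% of all genes in that fit, where 11.8% rose and 10.9% fell. Values from this fit are given below where they change the call of a member, and for some other genes. Values given below from the main fit only were not all stable, and some moved by over 1.5 times. Among these, Slc25a4 went from 0.09 to -0.14, Slc25a38 from -0.15 to -0.33, Slc25a43 from -0.20 to -0.52 and Got1 from 0.23 to 0.02. These 4 passed in neither fit.

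**Figure D2:**
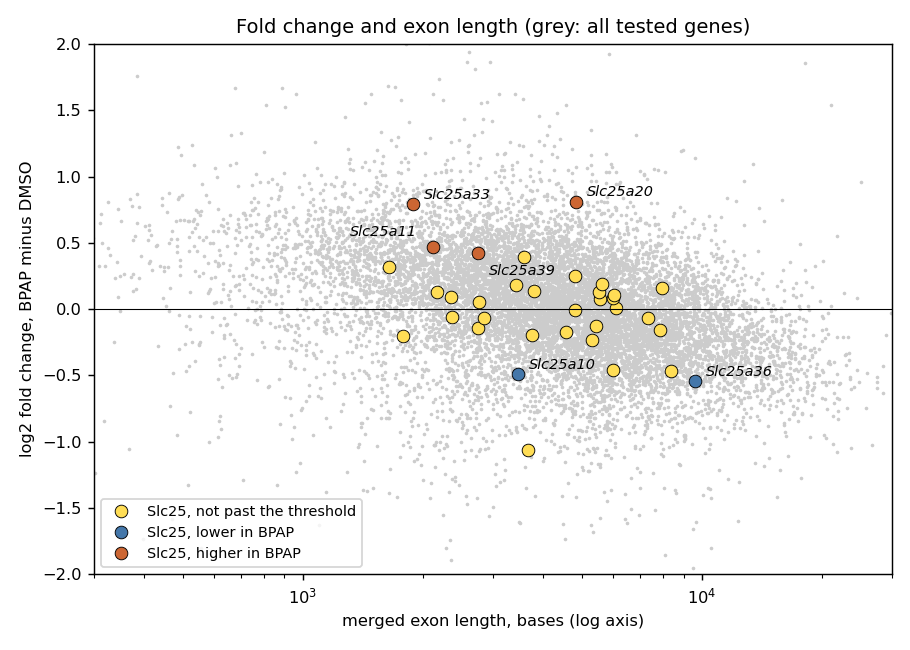
Log2 fold change, BPAP minus DMSO, against merged exon length (log axis) for all tested genes (grey) and 35 tested Slc25 genes (coloured by call). The axes show 11616 genes and leave out 49. Slc25a33 and Slc25a11 are short and rose, Slc25a36 is the longest tested member and fell, and Slc25a20, which rose, has 4844 bases.

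The cells carried macrophage RNA and almost none of other cell types. Of 10 macrophage markers in 11 rows of the table, 10 rows were tested, among them Cd68, Lyz2 and Csf1r, and Mertk had 0 counts. Their summed level was 2620 to 3036 RPKM, the library-scaled count per kilobase of merged exon, in DMSO and 3215 to 3479 in BPAP. Of those rows 5 were higher and 2 lower in BPAP (70.0%, beside 31.7% of all tested genes), or 2 and 1 in the length-adjusted fit (beside 22.6%), and the part of this in the carriers' values was not tested. Fibroblast, epithelial and lymphocyte markers had at most 12, 1 and 5 counts in any library, and 2 of 5, 4 of 5 and 5 of 7 of them had 0 in every library, among them Dcn, Pdgfra, Epcam, Cdh1 and Cd3e. The share of mitochondrially encoded genes was 10.8% in DMSO 1 and 6.53% to 7.55% in the other libraries, and its part in the carriers' values was not tested.

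The carriers spanned a wide range of levels. Per kilobase of exon, Slc25a5, which encodes the adenine nucleotide translocator 2, stood far above the rest at 335 ± 46.5 RPKM in DMSO and, in BPAP, 419 ± 38.3 (SD, n = 3 each). It alone took 35.3% to 40.5% of the family's summed RPKM in DMSO and 40.5% to 43.1% in BPAP. Next came Slc25a4 and Slc25a3, at 80.7 ± 6.71 and 75.0 ± 3.90 RPKM in DMSO, neighbours whose levels did not differ beyond their spread. Slc25a39 followed at 55.8 ± 3.95 and Slc25a1 at 50.2 ± 0.70. These 5 genes held 66.5% to 70.0% of the family's RPKM in DMSO and 70.1% to 72.2% in BPAP. Slc25a11, Slc25a24 and Slc25a37 shared a level of 24.3 to 24.9 RPKM in DMSO, and 20 tested members lay below 10 RPKM on average over all libraries. Slc25a53 was the lowest tested member, at 0.44 ± 0.01 RPKM in DMSO. The whole family took 0.245%, 0.274% and 0.277% of the counts in DMSO 1, 2 and 3, and 0.269%, 0.298% and 0.279% in BPAP 1, 2 and 3. These shares overlapped between the groups.

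**Figure D3:**
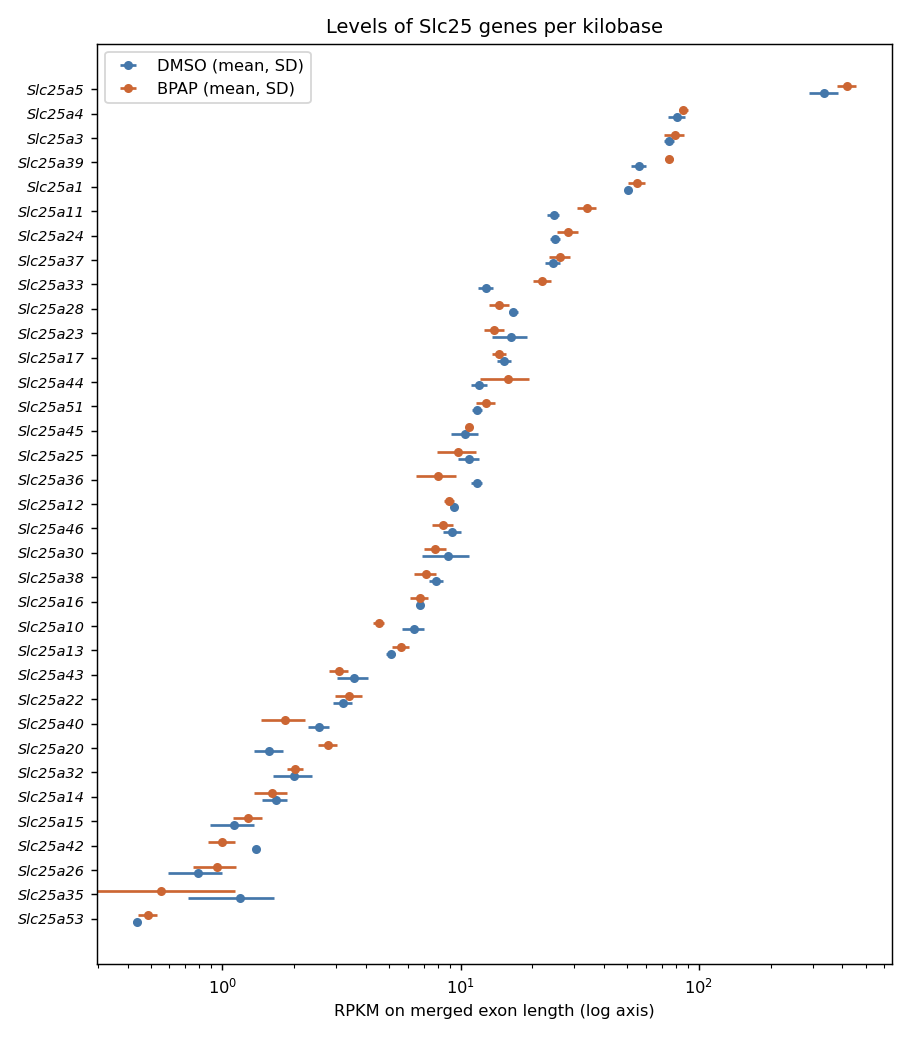
Levels of 35 of the 36 tested Slc25 genes in RPKM on merged exon length (log axis), as mean and SD of 3 DMSO and 3 BPAP libraries. Slc25a5 stands apart at the top, and the order of the next 4 genes, Slc25a4, Slc25a3, Slc25a39 and Slc25a1, is the same in both groups. The bar of Slc25a35 in BPAP runs off the axis, because its SD exceeds its mean.

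The carriers of pyrimidine nucleotides moved in opposite directions. Slc25a33 and Slc25a36 both bring pyrimidine nucleotides into the matrix for mitochondrial DNA and RNA synthesis. Slc25a33 (chromosome 4, 149744036 to 149774277, minus strand, GRCm38) measured 22.4, 23.8 and 25.8 CPM, counts scaled to library size, in DMSO and 40.2, 45.6 and 38.7 CPM in BPAP. All BPAP libraries lay above all DMSO libraries. The rise was 1.73-fold (0.79 ± 0.11 SE on the log2 scale, adjusted p = 0.00119 by edgeR), the smallest p in the family. Its rise was called in all 14 alternatives, at 0.50 in the length-adjusted fit. Its exons overlap those of the antisense gene Gm13068 over 281 bases, and Gm13068 had 0 counts in every library.

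Slc25a36 (chromosome 9, 97074961 to 97111157, minus strand) measured 117, 106 and 114 CPM in DMSO and 83.9, 60.3 and 86.5 CPM in BPAP. Every BPAP value lay below every DMSO value, with BPAP 2 the lowest. It fell by 0.54 on the log2 scale (SE 0.13, adjusted p = 0.0118 by edgeR), 1.46-fold lower. Its merged exons have 9594 bases, the most of any tested member, and 37.4% GC. In the length-adjusted fit, which takes out trends with both, its log2 fold change was -0.08 (adjusted p = 0.477). The separate parts of length and GC content were not tested. The ratio of Slc25a33 to Slc25a36 in RPKM was 0.98, 1.14 and 1.15 in DMSO 1, 2 and 3 and 2.44, 3.85 and 2.27 in BPAP 1, 2 and 3. The ratio thus did not overlap between the groups and was 2.55-fold higher in BPAP, or 0.58 higher on the log2 scale in the length-adjusted fit. Its 2-sided exact permutation p was 0.1, the smallest that 3 against 3 allows, and 0.1 after adjustment over the 5 pairs of carriers compared.

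The 250 bases before the annotated start are shown for this pair of paralogues, because they moved apart, and for Slc25a20 and Slc25a39, whose rises were called in all alternatives. They are RefSeq sequences on GRCm38.p6, 5′ to 3′ on the gene's strand. The RefSeq starts differ from those of the gene coordinates given here. By these coordinates the Slc25a39 window lies wholly inside its gene and the others lie partly inside theirs. Capitals mark matches, on either strand, to 4 motifs. These were the core of the NRF1 site, GCGCATGC, a C/EBP-ATF site, TGATGNAA, the core of the antioxidant response element, TGACNNNGC, and the cyclic AMP response element, TGACGTCA. The last was added after the sequences had been seen.
Slc25a33, chr4:149774268-149774517, minus strand: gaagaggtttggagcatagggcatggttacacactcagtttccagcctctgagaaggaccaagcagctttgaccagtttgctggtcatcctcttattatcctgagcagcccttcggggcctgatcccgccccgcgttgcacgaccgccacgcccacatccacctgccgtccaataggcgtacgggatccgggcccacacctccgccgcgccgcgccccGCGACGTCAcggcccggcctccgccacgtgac
Slc25a36, chr9:97111042-97111291, minus strand: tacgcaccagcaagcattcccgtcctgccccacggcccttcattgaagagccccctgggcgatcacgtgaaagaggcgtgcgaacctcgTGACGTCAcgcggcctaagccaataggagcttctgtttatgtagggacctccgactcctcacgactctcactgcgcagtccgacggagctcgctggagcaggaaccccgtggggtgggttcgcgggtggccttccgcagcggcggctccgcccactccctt
Slc25a20, chr9:108661886-108662135, plus strand: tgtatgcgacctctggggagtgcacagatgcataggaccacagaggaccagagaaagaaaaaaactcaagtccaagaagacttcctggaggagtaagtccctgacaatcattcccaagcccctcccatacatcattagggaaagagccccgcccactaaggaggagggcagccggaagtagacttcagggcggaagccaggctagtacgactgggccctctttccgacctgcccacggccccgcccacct
Slc25a39, chr11:102407518-102407767, minus strand: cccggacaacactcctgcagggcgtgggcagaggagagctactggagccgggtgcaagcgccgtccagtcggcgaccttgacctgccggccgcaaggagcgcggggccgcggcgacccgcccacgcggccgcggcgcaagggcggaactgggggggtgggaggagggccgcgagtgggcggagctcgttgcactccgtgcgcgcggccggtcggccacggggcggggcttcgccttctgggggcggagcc

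In these windows the Slc25a33 promoter held 1 antioxidant response element core and that of Slc25a36 held 1 cyclic AMP response element, and the other promoters held none of the 4 motifs. Of the 36 tested members, 28 had a promoter in the RefSeq table. In windows of 300 bases, from 250 before to 50 after the start, the antioxidant response element core was found in 9 of those 28 members (32.1%), beside 17.2% of 8605 tested genes with a promoter. Slc25a33 was the only one of the 9 that passed the test, and Slc25a3, Slc25a5, Slc25a14, Slc25a23, Slc25a25, Slc25a38, Slc25a40 and Slc25a53 were the others. The cyclic AMP response element was in 2 members, Slc25a25 and Slc25a36 (7.14%, beside 3.96%). The NRF1 core and the C/EBP-ATF site were in 0 of the 28, beside 6.46% and 2.68%, which says only that these letters are not in these windows.

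Slc25a20, the carnitine-acylcarnitine carrier that brings fatty acids into the matrix for oxidation, rose by about as much as Slc25a33, and the order of the pair changed between alternatives. It lies on chromosome 9 at 108662088 to 108684641, plus strand. The DMSO libraries measured 6.43, 8.14 and 8.31 CPM and the BPAP libraries 13.2, 14.7 and 12.4 CPM, with no overlap. The change was 1.75-fold (0.81 ± 0.15 SE on the log2 scale, adjusted p = 0.00426 by edgeR). In the length-adjusted fit it was 0.79. Its partner enzymes at the membranes, the carnitine palmitoyltransferase genes Cpt1a and Cpt2, had log2 fold changes of -0.01 and 0.19 (adjusted p = 0.943 and 0.262).

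Of Slc25a39 and Slc25a40, which import glutathione into mitochondria, Slc25a39 rose and Slc25a40 did not pass. Slc25a39 (chromosome 11, 102402985 to 102407946, minus strand) measured 150, 166 and 145 CPM in DMSO and 198, 207 and 214 CPM in BPAP. The groups did not overlap, with a rise of 1.34-fold (0.42 ± 0.09 SE on the log2 scale, adjusted p = 0.00575 by edgeR). In the length-adjusted fit the log2 fold change was 0.26 (adjusted p = 0.0382). Slc25a40 measured 21.4 ± 2.18 in DMSO libraries and 15.4 ± 3.26 CPM in BPAP (SD, n = 3 each). Its log2 fold change of -0.47 (SE 0.16) just missed the threshold (adjusted p = 0.0505) and was called in 6 of 14 alternatives. It ranged from -0.31 without BPAP 2 (adjusted p = 0.103) to -0.60 without BPAP 1 (0.0318). The merged exons of Slc25a40 are long, at 8386 bases, and have 37.3% GC. In the length-adjusted fit, which takes out trends with both, it was at -0.03 (adjusted p = 0.854). Which of the 2 trends moved it was not tested. The ratio of Slc25a39 to Slc25a40 in RPKM was 19.3 to 26.8 in DMSO and 33.1 to 53.4 in BPAP. It was 1.88-fold higher, or 0.30 higher on the log2 scale in the length-adjusted fit (2-sided exact permutation p = 0.1).

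Of the carriers of citric acid cycle acids, 1 rose, 1 fell and the citrate carrier did not pass. Slc25a11, the oxoglutarate-malate exchanger of the malate-aspartate shuttle (chromosome 11, 70644196 to 70647479, minus strand), measured 48.7, 54.6 and 52.8 CPM in DMSO and 70.1, 79.0 and 66.6 CPM in BPAP. All BPAP libraries were higher, and the rise was 1.38-fold (0.47 ± 0.10 SE on the log2 scale, adjusted p = 0.00692 by edgeR). In the length-adjusted fit it was at 0.21 (adjusted p = 0.0842). Its exons overlap those of Rnf167 on the opposite strand over 189 bases, and Rnf167, at 35.1 CPM, had a log2 fold change of -0.18 (adjusted p = 0.208).

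Slc25a10, which exchanges malate or succinate for phosphate (chromosome 11, 120491840 to 120499187, plus strand), measured 20.1, 24.6 and 21.1 CPM in DMSO and 16.03, 16.2 and 14.7 CPM in BPAP. Every BPAP library lay below every DMSO library. The gene was 1.40-fold lower (-0.49 ± 0.12 SE on the log2 scale, adjusted p = 0.0139 by edgeR), a call lost without DMSO 2 (-0.40, adjusted p = 0.0686). In the length-adjusted fit it was at -0.60 (adjusted p = 0.00579). Slc25a1, the citrate carrier that supplies acetyl-CoA for fatty acid synthesis, measured 110, 109 and 107 CPM in DMSO and 113, 130 and 112 CPM in BPAP. The groups did not overlap, but the difference was small (log2 fold change 0.13, SE 0.09, adjusted p = 0.309), and it was -0.11 in the length-adjusted fit. Slc25a21, the oxodicarboxylate carrier, had 0 counts in all libraries.

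**Figure D4:**
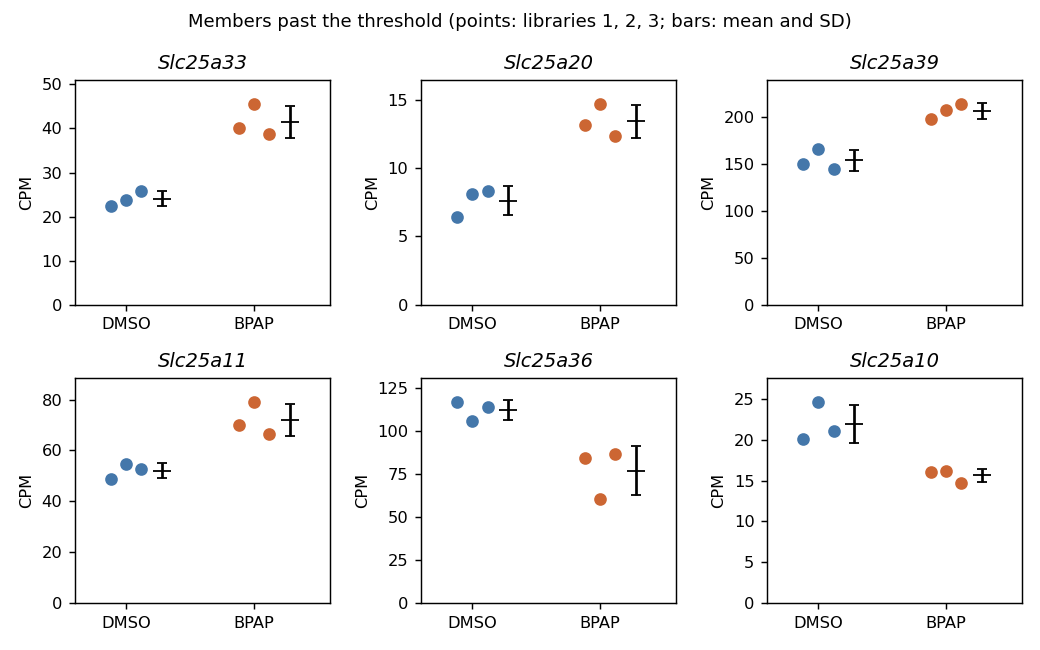
CPM of the 6 members past the threshold in each library (points, libraries 1, 2 and 3 from left to right), with mean and SD of each group; each panel has its own axis from 0. In every panel the DMSO and BPAP points do not overlap, with BPAP higher for Slc25a33, Slc25a20, Slc25a39 and Slc25a11 and lower for Slc25a36 and Slc25a10.

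The carriers that serve ATP synthesis did not pass. Slc25a5, which together with Slc25a4 exports ATP from the matrix in exchange for ADP, measured 464, 592 and 600 CPM in DMSO and 625, 751 and 692 CPM in BPAP. No libraries overlapped, but DMSO 1 lay well below the other DMSO libraries. The log2 fold change was 0.32 (SE 0.12, adjusted p = 0.0565), with a call in 5 of 14 alternatives. Without DMSO 1 it was 0.19 (adjusted p = 0.185), and without BPAP 1 it was 0.39 (adjusted p = 0.0493). It was 0.03 in the length-adjusted fit (adjusted p = 0.841). The treatment of reads matching several genes is not given in the sources used here, so Slc25a5, which has retrotransposed copies, is uncertain in level.

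Slc25a4 measured 172, 199 and 198 CPM in DMSO and 194, 204 and 210 CPM in BPAP, with overlap (log2 fold change 0.09, SE 0.09, adjusted p = 0.451). Slc25a3, the phosphate carrier that also imports copper, measured 393, 421 and 435 CPM in DMSO and 400, 483 and 432 CPM in BPAP. Its values overlapped as well (log2 fold change 0.07, SE 0.09, adjusted p = 0.571). Slc25a31, the translocator of the male germ line, had 0 counts, where 3 counts in the smallest library would be 0.271 CPM. The ratio of Slc25a4 to Slc25a5 in RPKM was 0.242 ± 0.015 in DMSO and 0.206 ± 0.015 in BPAP (SD, n = 3 each). These did not overlap, at a 2-sided exact permutation p of 0.1. Of the ATP-Mg and phosphate carriers, which adjust the matrix pool of adenine nucleotides, Slc25a23, Slc25a24 and Slc25a25 were at log2 fold changes of -0.23, 0.18 and -0.16 (adjusted p = 0.188, 0.192 and 0.408). Slc25a24 passed without BPAP 2 (0.26, adjusted p = 0.0435) and was at 0.12 without BPAP 1 (0.455), and Slc25a41 had at most 2 counts in a library.

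Among amino acid carriers 0 of 6 tested genes passed, beside 31.7% of all tested genes. Slc25a12 and Slc25a13 exchange aspartate for glutamate, the step that drives the malate-aspartate shuttle. Slc25a12 measured 68.3, 68.8 and 69.6 CPM in DMSO and 63.2, 69.5 and 64.3 CPM in BPAP, so the groups overlapped (log2 fold change -0.07, SE 0.09, adjusted p = 0.564). Slc25a13 measured 18.4, 19.6 and 19.9 CPM in DMSO and 23.2, 20.6 and 20.01 CPM in BPAP (0.14 ± 0.11 SE on the log2 scale, adjusted p = 0.378). Its groups did not overlap, by a narrow margin. Their ratio in RPKM was 1.81 to 1.92 in DMSO and 1.41 to 1.75 in BPAP (2-sided exact permutation p = 0.1), and the log2 difference of -0.21 was -0.02 in the length-adjusted fit. The glutamate carrier Slc25a22 was at 0.08 (adjusted p = 0.650), the ornithine carrier Slc25a15 at 0.19 (0.497) and Slc25a38, a glycine carrier needed for haem synthesis, at -0.15 (0.378). Slc25a44, a carrier of branched-chain amino acids, measured 42.8 ± 3.45 in DMSO libraries and 56.3 ± 13.0 CPM in BPAP (SD, n = 3 each). Its log2 fold change was 0.39 (adjusted p = 0.0720), and BPAP 2 was its highest library. Without BPAP 2 it was 0.19 (adjusted p = 0.187), and it passed without BPAP 1 or without BPAP 3 (0.49 and adjusted p = 0.0491 in both). Slc25a2, Slc25a18 and Slc25a29 did not reach the filter, and their highest counts were 8, 5 and 1.

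The mitoferrins, which bring iron to the matrix for haem and iron-sulphur clusters, did not pass. Slc25a37 (mitoferrin 1) measured 159, 140 and 141 CPM in DMSO and 157, 173 and 142 CPM in BPAP (log2 fold change 0.10, SE 0.10, adjusted p = 0.453). Its values overlapped. Slc25a28 (mitoferrin 2) was at -0.19 (adjusted p = 0.158), and it fell in the length-adjusted fit (-0.31, adjusted p = 0.0260) and without BPAP 2 (-0.27, adjusted p = 0.0487), with -0.14 without BPAP 1 (0.400). The ratio of Slc25a28 to Slc25a37 in RPKM was 0.604, 0.746 and 0.710 in DMSO 1, 2 and 3 and 0.513, 0.558 and 0.601 in BPAP 1, 2 and 3. The groups did not overlap, though DMSO 1 and BPAP 3 nearly met (2-sided exact permutation p = 0.1). The log2 difference of -0.30 was -0.46 in the length-adjusted fit.

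**Figure D5:**
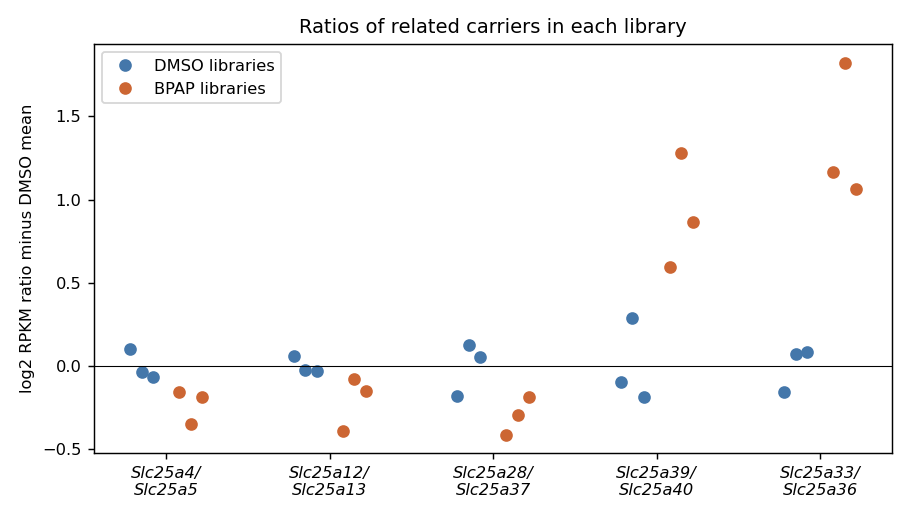
Log2 ratio of RPKM between 5 pairs of related carriers in each library, with the DMSO mean of each pair set to 0. In all 5 pairs the BPAP points do not overlap the DMSO points, with the ratio of Slc25a33 to Slc25a36 farthest from 0, at a mean of 1.35; the p of each pair was 0.1, and single genes did not overlap in 49% of all those tested.

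None of the other cofactor carriers passed. Slc25a42, a coenzyme A carrier, measured 8.27 ± 0.17 in DMSO libraries and 5.99 ± 0.80 CPM in BPAP (SD, n = 3 each), a log2 fold change of -0.46 that just missed the threshold (adjusted p = 0.0503). It was called with DESeq2 size factors (adjusted p = 0.0476) and with limma-voom (0.0479). The S-adenosylmethionine carrier Slc25a26 was at 0.25 (0.458) and Slc25a32, of folate and FAD, at 0.01 (0.964). Slc25a51, which imports NAD, was at 0.13 (0.350), Slc25a16 at -0.01 (0.968) and the peroxisomal carrier Slc25a17 at -0.07 (0.634). The uncoupling-protein relatives Slc25a14 and Slc25a30 were at -0.06 and -0.18 (adjusted p = 0.850 and 0.430), and Slc25a27 had 0 counts. Slc25a46, an outer membrane protein of mitochondrial dynamics, was at -0.13 (0.401). Of the members with no role assigned here, Slc25a43, Slc25a45 and Slc25a53 were at -0.20, 0.06 and 0.16 (adjusted p = 0.415, 0.739 and 0.550).

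Slc25a35 had the largest fold change of the tested members and the largest error. It measured 6.24, 3.91 and 2.89 CPM in DMSO and 4.48, 0.67 and 0.98 CPM in BPAP, values chosen after they were seen. BPAP 1 lay among the DMSO libraries, and the log2 fold change was -1.06 (SE 0.69, adjusted p = 0.288). Without BPAP 1 it was -2.36 (adjusted p = 0.00543), and without BPAP 2 it was -0.64 (0.534). The other libraries left out in turn gave -0.73 (without BPAP 3) to -1.30 (without DMSO 3), none of which passed. With all libraries kept and a block for replicate number, Slc25a35 was called lower (-1.29, adjusted p = 0.0302). Of its exons 31.3% are shared with Rangrf on the opposite strand, so its counts are uncertain. Slc25a34, Slc25a47 and Slc25a48 had at most 1, 2 and 1 counts in a library, and Slc25a54 had 0.

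Some carriers lie side by side in the genome at very different levels. Slc25a54 (0 counts) ends 6461 bases before Slc25a24 (26.6 RPKM over all libraries) on chromosome 3. Slc25a41 (0.03 RPKM) lies 2056 bases from Slc25a23 (15.1 RPKM) on chromosome 17, and Slc25a43 (3.32 RPKM) 18448 bases from Slc25a5 (377 RPKM) on the X chromosome. Slc25a29 and Slc25a47, 15245 bases apart on chromosome 12, were both below the filter.

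The import, channel and enzyme genes around the carriers were counted in lists, and differences between lists were not tested. In the import route that inserts carriers into the inner membrane, 5 of 9 tested genes (55.6%) rose and 0 fell, where 16.2% of all tested genes rose and 15.5% fell. The median of the 9 was 0.40 on the log2 scale, beside 0.02 for all tested genes. The small intermembrane-space chaperone genes Timm13, Timm8b, Timm10 and Timm8a1 rose 1.67-, 1.58-, 1.59- and 1.68-fold (adjusted p = 0.00212, 0.00355, 0.0118 and 0.0124). Other small chaperone genes of the list, Timm9 and Timm10b, were at 0.05 and 0.28 on the log2 scale and did not pass (adjusted p = 0.820 and 0.0902). Timm22, the core of the insertase, rose 1.32-fold (adjusted p = 0.0353), a call lost whichever library was left out (0.0582 without DMSO 2 to 0.112 without DMSO 1), while Tomm70a, the outer membrane receptor for carriers, was at 0.02. In the length-adjusted fit 3 of the 9 rose, beside 11.8% of all genes in that fit. Of the 3, Timm13 was the only one called in both fits. These 3 were Timm13, Agk and Tomm70a (adjusted p = 0.0295, 0.0473 and 0.0276), and Timm8a1, Timm8b, Timm10 and Timm22 did not pass (adjusted p = 0.108, 0.130, 0.198 and 0.162).

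Of 4 tested genes in the list of outer membrane channels, 2 rose and 0 fell (50%, beside 31.7% of all tested genes). Vdac3 rose 1.56-fold and Tspo 1.88-fold (adjusted p = 0.00172 and 0.00691), while Vdac1 and Vdac2 were at 0.09 and 0.24 (0.537 and 0.0806). Tspo did not pass in the length-adjusted fit (adjusted p = 0.0514). Of 18 tested inner membrane transporters outside the family, 4 rose and 1 fell, and these 27.8% are near the 31.7% of all tested genes. Ghitm, which encodes an inner membrane protein of proton and calcium exchange, rose from 806 ± 91.3 to 1313 ± 64.0 CPM (SD, n = 3 per group), or 1.63-fold. The calcium uniporter subunit gene Smdt1 rose 1.31-fold (adjusted p = 0.0219), and the sodium-calcium exchanger gene Slc8b1 was 1.38-fold lower (adjusted p = 0.00951). The pyruvate carrier subunit gene Mpc2 rose by 0.38 on the log2 scale (adjusted p = 0.0483), a call lost whichever library was left out, with adjusted p from 0.0559 (without DMSO 2) to 0.139 (without DMSO 1). Smdt1 did not pass in the length-adjusted fit (adjusted p = 0.643), nor without DMSO 1, DMSO 2 or BPAP 3 (0.0779, 0.0777 and 0.0714). The carrier-fold genes under other symbols did not pass: Ucp2, Mtch1 and Mtch2 were at 0.08, 0.01 and 0.09 (adjusted p = 0.601, 0.957 and 0.466), although Mtch2 rose in the length-adjusted fit (0.28, adjusted p = 0.0388). Of 27 genes listed as partners of the carriers, most of them for enzymes, Coasy, of coenzyme A synthesis, rose 1.56-fold (adjusted p = 0.00372), and the other 26 did not pass. Among them, the malate-aspartate shuttle genes Got1, Got2, Mdh1 and Mdh2 were at 0.23, 0.23, 0.22 and 0.10.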

How the data were processed

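The authors deposited 1 table of raw counts and FPKM values for 6 libraries. Per the file headers the counts are per gene, and they are whole numbers. FPKM values are the authors' own. Per the submitters' processing notes, HISAT2 2.0.4, StringTie 1.3.3b and edgeR were used with GRCm38, with no role given. Total RNA was extracted with TRIzol, per the labels' protocols. No source used here gives the annotation release, strand setting or treatment of multi-mapped reads, so paralogues and antisense pairs are uncertain.

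Groups came from the treatment label and replicate numbers from the titles. Counts were filtered by edgeR's default (11711 of 34745 genes), scaled by TMM and tested with edgeR 4.0.16 (R 4.3.3, quasi-likelihood, robust, treatment only), with Benjamini-Hochberg adjustment over all tested genes at 0.05. Standard errors were derived from the F statistic. CPM is TMM-scaled, and RPKM divides it by merged exon length from GENCODE M21 (GRCm38), in which 34267 identifiers were found. Alternatives were DESeq2 1.42.0 size factors, upper quartile scaling, no filter, DESeq2, limma-voom (limma 3.58.1), limma-trend on log2(FPKM + 1) (genes averaging 1 FPKM or more), a block for replicate number, a length-adjusted fit with a lowess trend (span 0.3) of each library with exon length and GC content removed as an offset (11665 genes), and each library left out. The test was checked on simulated counts with the same dispersion for every gene. It recovered 47.8% of 1.5-fold, 92.5% of 2-fold and 100% of 4-fold changes, with 4 false calls among 11624 genes. Only genes above a minimum mean count were changed in the simulation. Changes of 1.5-fold or less, and some larger ones, can thus be missed. A limit of 3 counts is 0.217 to 0.271 CPM, without TMM scaling, for counting error only. No pair of libraries of a group agreed within sampling noise (chi-square per degree of freedom of 6.64 or more).

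The members, lists and motifs were chosen with earlier results of these data known. The rule was to name every tested member; 1 member and genes of other lists that it would name are not reported here. Values per library are given for those past the threshold and for 11 members fixed by role. In each other list, up to 4 genes past the threshold with the smallest p are named, or 2 where none passed. Agk, Timm9, Timm10b, Tomm70a, Timm22, Mpc2, Cpt1a, Cpt2, Vdac1, Vdac2, Mtch1, Got1, Got2, Mdh1 and Mdh2 were named outside that rule after their values were seen.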

Additional observations from a re-analysis of the deposited data

How the results depend on the processing

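Slc25a33, Slc25a20 and Slc25a39 kept their direction and call in all 14 alternatives, and Slc25a10, Slc25a11 and Slc25a36 in 13 of 14. Of the alternative values for single members, 477 kept their side of the threshold, 20 gained a call and 3 lost one. Against 2 members lower, 4 were lower with DESeq2 size factors, limma-voom and the replicate block, and 1 (without DMSO 2) to 4 (without BPAP 1) with 1 library left out. The cause was not tested. Members higher numbered 3 to 6 over all alternatives. Of all tested genes, 1244 (without DMSO 1) to 1654 were higher with 1 library left out, against 1901. Against 1 lower gene in the other mitochondrial lists, 2 were lower with DESeq2 size factors, without a filter on low counts and in the length-adjusted fit (exon length and GC trend removed), 3 with DESeq2 and the replicate block, and 1 to 3 with 1 library left out (2 without DMSO 1, 3 without BPAP 3). Deviations from the group mean correlated at 0.101, 0.054 and 0.010 between same-numbered libraries. Between differently numbered libraries the correlations were -0.086 to 0.045. The numbers were not taken to pair the samples, a choice that these small values do not settle. With the replicate block 2149 genes were higher and 2087 lower, against 1901 and 1814. The 5 pair ratios kept their sign with any 1 library left out. Genes under 10 CPM, such as Slc25a35, had the largest errors.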
